A study of Mus musculus with 18 samples.

Results

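The cells described here are T cells of mouse skin that carried transcripts of the T cell receptor beta constant genes and none of the delta constant gene, taken from single-cell mRNA libraries of skin stretched from below. The members were chosen by their own UMI counts of 7 genes: a cell was a member when it had at least 2 unique molecular identifiers (UMIs, counted mRNA molecules) over Cd3d, Cd3e and Cd3g, at least 2 over Trbc1 and Trbc2, no Trdc UMI and no Foxp3 UMI. The rule found 995 cells among 47251 cells that passed the quality limits of 200 genes, 500 UMIs and 10% mitochondrial UMIs. The rule was meant for conventional alpha beta T cells. The markers given below held for the members with a coreceptor UMI and less for the others, so the set is called the Trbc-positive T cells.

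All mice had surgery that opened a space under the skin. Mice of the expanded arm then received a hydrogel expander under the skin, which swells and stretches it, and mice of the control arm received none. Skin was collected 1, 2 or 4 days later and sorted for DAPI-negative live cells without a lineage gate, so all skin cell types were sampled. There were 10 mRNA libraries, 5 per arm, with rounds 1 and 2 of sequencing at day 1, rounds 1 and 2 at day 2, and round 1 at day 4. The mice of 1 arm and round shared 1 tube and 1 reaction, and in 8 of the libraries antibody hashtags marked which mouse a cell came from. Strain, sex and age of the mice are not given in the sources used here.

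A T cell reads peptides through a receptor of alpha and beta chains, encoded with the constant genes Trac, Trbc1 and Trbc2, that signals through the CD3 chains. Conventional alpha beta T cells pair this receptor with a coreceptor: CD4 on helper cells binds MHC class II, and CD8, made of Cd8a and Cd8b1, binds MHC class I on targets of cytotoxic cells. Mouse skin also holds regulatory T cells, which depend on Foxp3 and restrain other T cells, and many gamma delta T cells, among them the dendritic epidermal T cells, whose receptor uses the delta variable gene Trdv4. Gamma delta T cells can also transcribe the beta constant genes, so a Trbc UMI alone does not set the lineages apart.

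In GENCODE's annotation of GRCm38 (mm10), Trac lies on chromosome 14 at 54220521 to 54224206, downstream of Trdc (54142851 to 54148868) and Trdv4 (54074905 to 54075515) in the same locus and on the same strand. Trbc1 (41538218 to 41539881) and Trbc2 (41546730 to 41548352) lie side by side on chromosome 6. Reads of the paralogs Trbc1 and Trbc2 are hard to tell apart, and the rule used their sum.

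The 10 libraries held 2468 to 9115 barcodes and 17726739 to 75470722 gene UMIs, and their kept cells had median counts of 6440.5 to 12847.5 UMIs. The Trbc-positive T cells had a median of 4746 UMIs. Of 46988 distinct kept barcodes, 263 occurred in more than 1 library, and none was a member in more than 1. A doublet mark, from Scrublet or from more than 1 hashtag, fell on 84 of the 995 members. Separately, 395 members (39.7%) had at least 2 UMIs from a marker list of another lineage, with 32.7% to 61.3% in single libraries. The lists counted were those of macrophages, dendritic cells, neutrophils, mast cells, keratinocytes and endothelial cells. Markers of fibroblasts and of other lymphocytes were not counted in this share. Values of marker lists stand beside the results they move with.

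One library stood apart. The expanded library of day 1, round 2 held 361 of the 995 members, and 324 of them carried the hashtag of 1 mouse, mouse 3. The 15-base hashtags of that library are shown because this attribution rests on them, with the tag of mouse 3 last.
Mouse 1, A0310: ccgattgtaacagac
Mouse 2, A0311: gcttaccgaattaac
Mouse 3, A0312: ctgcaaatataacgg
Mouse 1 had 12 members and mouse 2 had 5. In mouse 3 the members were 16.4% of its 1978 assigned cells and 47.9% of its 677 cells with at least 2 Cd3 UMIs. Of its 324 members, 204 had a CD8 UMI and no Cd4 UMI. Over the 8 hashed libraries 843 of 908 members (92.8%) were assigned to a mouse, and all 843 received the same mouse under a second assignment rule. Under that second rule mouse 3 had 3151 assigned cells, of which 10.8% were members. Some results that rest on this mouse are given with and without it, and others only with it.

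Receptor variable genes, which are only partly covered by 3′ sequencing, were seen in few members. In mouse 3, 42 members had an alpha variable (Trav) UMI, and 13 of them (31.0%) carried Trav13-2, all 13 with a CD8 UMI only. Among the other 671 members 76 had a Trav UMI, of which 3 carried Trav13-2. Of the 21 members of mouse 3 with a beta variable (Trbv) UMI, 8 (38.1%) carried Trbv13-1, again all CD8-only, against 6 of 45 in the other members. Trav13-2 and Trbv13-1 were the leading segments in that mouse. In the other members Trav16n led the alpha segments with 11 cells, and Trbv13-1 and Trbv2 led the beta segments with 6 cells each. The segments were singled out after their counts were seen. Trav11, the alpha segment of invariant natural killer T cells, was seen in 2 members of mouse 3 and 3 of the others, and Trav1, that of mucosal-associated invariant T cells, in none of either.

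The checks of the label divided the members. At least 1 UMI of Trac was found in 633 members (622 without Trdv4 and 11 with it), 68 had Trdv4 only, and 294 had neither. Trac was detected in 81.5% of the 232 regulatory T cells and in 9.44% of the 180 gamma delta T cells, which have a Trdc UMI and no Trbc UMI. In a fibroblast gate of 11105 cells, with a median of 11862 UMIs, Trac was detected in 0.0720%. Per library, 27.8% to 77.3% of the members had a Trac UMI. A further 1238 cells had at least 2 Trbc UMIs and a Trdc UMI, and were outside the rule for that reason alone.

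At the edges of the rule the members changed by degrees. Just inside, 94 members had exactly 2 Cd3 UMIs, with Trac in 31.9% and Trdv4 in 10.6%, and 106 members had exactly 2 Trbc UMIs, with Trac in 54.7% and Trdv4 in 6.60%. Just outside, 140 cells had 1 Trbc UMI, with Trac in 54.3% and Trdv4 in 7.14%. Trac and Trdv4 were each found in 21.9% of the 73 cells that a single Trdc UMI left out. The 1165 cells with 2 or more Trdc UMIs had Trac in 13.0% and Trdv4 in 78.5%. Cells on both sides of the Trbc limit gave close shares of these genes, while the Trdc limit divided cells that differed in them. Trdv4 and Trdc belong to the same chain, so the shares of Trdv4 are tied to that limit.

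Coreceptor transcripts split the members further. A Cd8a or Cd8b1 UMI without Cd4 was found in 286 members (28.7%, called CD8-only), Cd4 alone in 98 (9.85%, CD4-only), both in 5, and neither in 606 (60.9%). Cd8a and Cd8b1 occurred together in 182 cells, Cd8a alone in 57 and Cd8b1 alone in 52. The median depth was 4207.5 UMIs in CD8-only, 4277 in CD4-only and 5407 in the cells with neither, so the last group was not the shallowest. Mouse 3 gave 204 of the 286 CD8-only cells, 26 of the 98 CD4-only cells and 94 of the 606 with neither.

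The cells with neither coreceptor carried fewer of the genes that mark alpha beta T cells. To compare subsets of unequal depth, each cell was thinned to 2000 UMIs, which left out 25 members below that depth (5 CD4-only, 3 CD8-only and 17 with neither), 4 regulatory T cells and 23 gamma delta T cells. After thinning Trac was found in 64.5% of CD4-only, 68.9% of CD8-only and 35.5% of the cells with neither, against 81.6%, 86.7% and 49.5% before. The receptor-associated scavenger protein gene Cd5 was found in 47.3%, 58.7% and 12.2%, and 0.637% of the gamma delta T cells. Its relative Cd6 gave 43.0%, 71.4% and 14.9%, and the costimulatory receptor gene Cd28 69.9%, 77.0% and 34.5%. In each of these genes the cells with neither coreceptor lay between the coreceptor-positive members and the gamma delta T cells, where Cd6 was found in 1.91% and Cd28 in 2.55%.

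Trdv4 was found, without thinning, in 13.0% of the cells with neither coreceptor, in 0 of 98 CD4-only cells, which allows up to 3.06%, and in 0 of 286 CD8-only cells, which allows up to 1.05%. In the gamma delta T cells, which were chosen by a Trdc UMI, the share was 67.8%. The gamma constant gene Tcrg-C2 was spread differently, with 49.3% of CD8-only, 6.12% of CD4-only and 14.5% of the others against 41.1% of gamma delta T cells and 0 of 232 regulatory T cells, which allows 1.29%. Among CD8-only cells without mouse 3 it was found in 40.2%. Each limit given for a share of 0 is 3 cells over the cells of the group. Such a limit takes cells as independent and does not cover the spread between mice. Mouse 3 gave 204 of the 286 CD8-only cells.

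**Figure D1:**
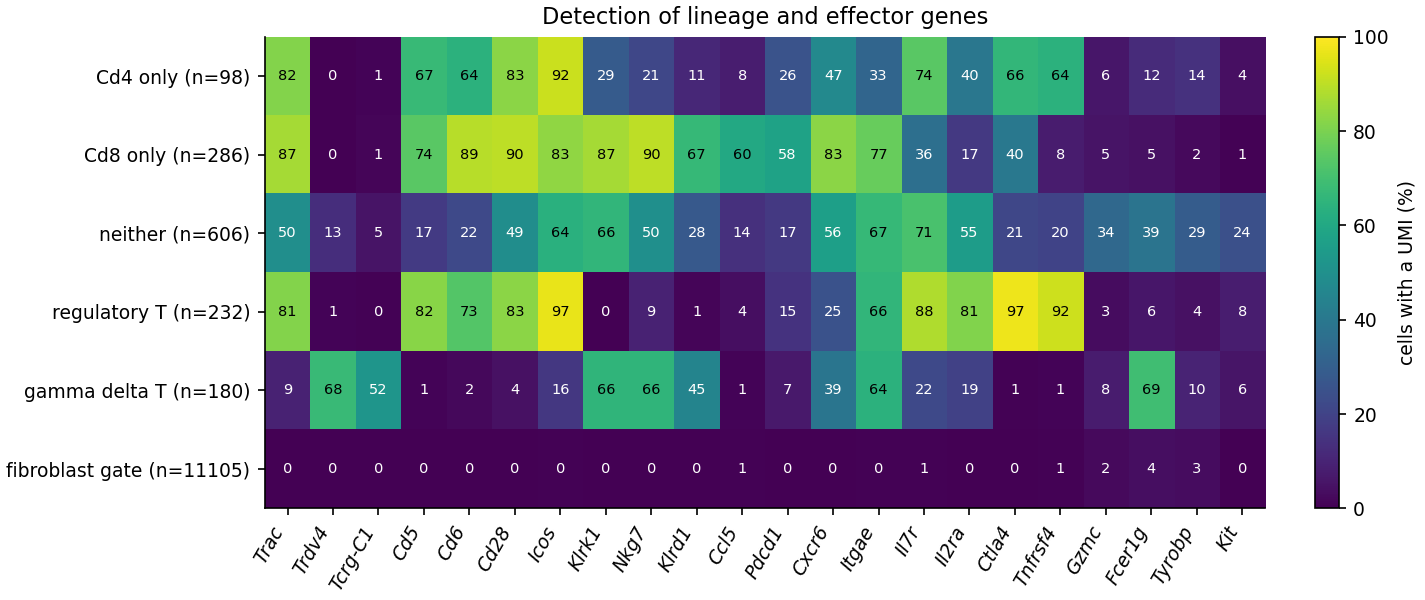
Percent of cells with at least 1 UMI of each gene, without thinning, in CD4-only, CD8-only and coreceptor-negative Trbc-positive T cells, regulatory T cells, gamma delta T cells and the fibroblast gate. Trac and Cd28 are high in both coreceptor-positive subsets, Klrk1 and Nkg7 are high in CD8-only cells, and Gzmc is highest in cells with neither coreceptor (33.7%).

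Nkg7, Klrk1 and Ccl5 were detected most often in CD8-only cells, while Gzmc, of the same cytotoxic list as Nkg7 and Klrk1, was rare in them. After thinning, Nkg7, a granule protein of cytotoxic cells, was found in 79.9% of them, 15.1% of CD4-only cells and 37.9% of cells with neither coreceptor. Klrk1, which encodes the activating receptor NKG2D, was found in 76.7%, 22.6% and 50.9%. Ccl5, a chemokine of memory CD8 T cells, was found in 52.7%, 5.38% and 9.00%, and in the fibroblast gate in 0.774% without thinning. The resident-cell integrin gene Itgae gave 54.1%, 21.5% and 47.4%. Without mouse 3, and without thinning, the 82 remaining CD8-only cells had Nkg7 in 86.6%, Klrk1 in 75.6%, Ccl5 in 31.7% and Cd5 in 48.8%, where all 286 had 90.2%, 86.7%, 60.5% and 74.5%. Of these 4 genes, Ccl5 and Cd5 changed most without that mouse.

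Among the members, Tnfrsf4 and Ctla4 were detected most often in CD4-only cells. The rule left out regulatory T cells only by a Foxp3 UMI, so those in which none was counted can be among the members. Their part in these shares was not tested. After thinning, Tnfrsf4, which encodes the costimulatory receptor OX40, was found in 46.2% of them, 5.30% of CD8-only cells and 13.6% of cells with neither coreceptor. Il7r, the receptor of the survival cytokine interleukin 7, was found in 58.1%, 26.5% and 54.0%. The inhibitory receptor gene Ctla4 was found in 52.7%, 27.6% and 16.6%.

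Gzmc, Fcer1g and Kit were detected most often, among the 3 coreceptor groups, in cells with neither coreceptor. These shares were not tested, and Fcer1g and Kit also stand in the marker lists of natural killer and mast cells. Gzmc, a granzyme of strongly activated killer cells, was found after thinning in 31.7% of them, 4.30% of CD4-only and 3.53% of CD8-only cells. Fcer1g, a signalling adaptor of innate lymphocytes and myeloid cells, gave 31.6%, 8.60% and 2.83%, and the growth factor receptor gene Kit 12.9%, 3.23% and 0.353%. Without thinning Fcer1g was found in 38.6% of these cells and in 69.4% of gamma delta T cells. The interleukin 2 receptor gene Il2ra was found after thinning in 33.4% of them, 25.8% of CD4-only and 11.3% of CD8-only cells.

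The CD8-only and CD4-only subsets were compared gene by gene in the 4 libraries with at least 10 cells of each. In edgeR's quasi-likelihood test with the library as a block, 8 of 1659 genes (0.482%) passed an adjusted p of 0.05. Cd8a and Cd8b1, which define the split, were among them. Klrd1, which encodes the natural killer receptor chain CD94, was higher in CD8-only cells by 3.92 on the log2 scale (SE 0.58, adjusted p = 0.0472, higher in 4 of 4 libraries). Klrk1 in CPM (UMIs scaled to a common total per summed sample) was 588, 1651, 1129 and 883 in CD8-only cells and 109, 350, 95.7 and 60.6 in CD4-only cells of control day 1, expanded day 1, control day 4 and expanded day 4. The libraries did not overlap between the subsets, and the difference was 2.89 (SE 0.32, adjusted p = 0.0461).

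Tnfrsf4 was lower in CD8-only cells by 2.80 on the log2 scale (SE 0.39, adjusted p = 0.0461), and Maf, a transcription factor of helper and regulatory T cells, by 2.18 (SE 0.33, adjusted p = 0.0472). Got1, a metabolic transaminase gene, was also lower, and so was the matrix gene Bgn. The CD4-only cells can hold regulatory T cells without a counted Foxp3 UMI, and their part in these differences was not tested. In the fixed list of cytotoxic genes 2 of 5 tested were higher and none was lower, with a median difference of 2.54 against -0.02 over all genes tested. The calls rested on few cells: leaving out 1 library at a time left 0 to 7 genes higher and 0 to 6 lower.

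No difference in the share of Trbc-positive T cells between the arms passed a test over libraries. Of kept cells the members were 0.618%, 1.89%, 1.78%, 2.05% and 1.43% in the control libraries of day 1 rounds 1 and 2, day 2 rounds 1 and 2, and day 4. The expanded libraries gave, in the same order, 1.73%, 6.14%, 0.914%, 1.14% and 2.07%. The arms overlapped, with means of 1.55% ± 0.57 and 2.40% ± 2.14 (SD, n = 5 libraries each, two-sided exact permutation p = 0.603, adjusted p over 3 denominators 0.944). The smallest p that 5 against 5 libraries allow is 0.00794. Without mouse 3 the difference was -0.19 percentage points in place of 0.85.

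The rest of the share analysis used immune cells as the base. Cells with a Ptprc UMI, the gene of the leukocyte antigen CD45, numbered 14698. The members are given per 100 of them, as a ratio, because 942 of the 995 members themselves had a Ptprc UMI. Over libraries the ratio was 5.58 ± 1.91 in control and 7.26 ± 6.80 in expanded skin (SD, n = 5 each, exact permutation p = 0.762). Per 100 of the 3640 cells with at least 2 Cd3 UMIs, which is a T cell base, the values were 23.95 ± 3.97 and 23.70 ± 11.08 (exact permutation p = 0.944).

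The hashtags made it possible to compare mice, 14 per arm, within day and round. At day 2 there were fewer Trbc-positive T cells per 100 Ptprc-positive cells in expanded skin. The 7 control mice ranged from 4.76 over a median of 5.83 to 7.80, and the 7 expanded mice from 0.942 over 2.06 to 4.62. The arms did not overlap. The means were 6.08 ± 1.18 and 2.32 ± 1.31 (SD), a difference of -3.76 (two-sided exact permutation test within round over 1400 arrangements, p = 0.00143, adjusted p = 0.00429 over the 3 bases and 0.0171 over all 12 tests of day and base). Over the 12 tests the adjusted p (exact permutation) was 0.0686 after thinning and with a gate of 3 UMIs, and 0.137 with a Trac UMI required, so the call over 12 tests was lost in each.

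The ratio depends on its base. At day 2 the Ptprc-positive cells themselves made up 31.5% to 63.0% of the assigned cells of the control mice (median 48.9%) and 27.0% to 81.1% of those of the expanded mice (median 72.7%). In the hashed libraries 55.9% of all kept cells were assigned to a mouse, against 92.6% of Ptprc-positive cells. Assigned cells thus held a larger part of immune cells than the kept cells did. Of all assigned cells, the members were 3.08% ± 1.12 in control and 1.49% ± 0.78 in expanded mice (exact permutation p = 0.00714, adjusted p = 0.0107 over the 3 bases). That difference of -1.59 was -0.96 when all cells were thinned to 2000 UMIs (exact permutation, adjusted p = 0.0621), and -0.80 for members with a Trac UMI (exact permutation, adjusted p = 0.116). Per 100 Cd3-positive cells the means were 27.0 and 16.8 (exact permutation p = 0.0514). All mice of an arm and round shared a reaction, so the arm cannot be told apart from the reaction within a round.

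Day 4 and day 1 gave wider spreads. At day 4 the 4 control mice had 2.15 to 6.36 members per 100 Ptprc-positive cells and the 4 expanded mice 2.70 to 14.3 (exact permutation p = 0.657). The arms overlapped at that day. At day 1 the control mice had 5.98, 9.45 and 8.67, and the expanded mice 8.89, 4.55 and, in mouse 3, 20.1. The exact permutation p was 0.8, where 3 against 3 mice cannot go below 0.1. Over all 3 days the means were 6.09 ± 1.85 and 5.46 ± 5.52 (SD, n = 14 each, permutation p = 0.669).

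**Figure D2:**
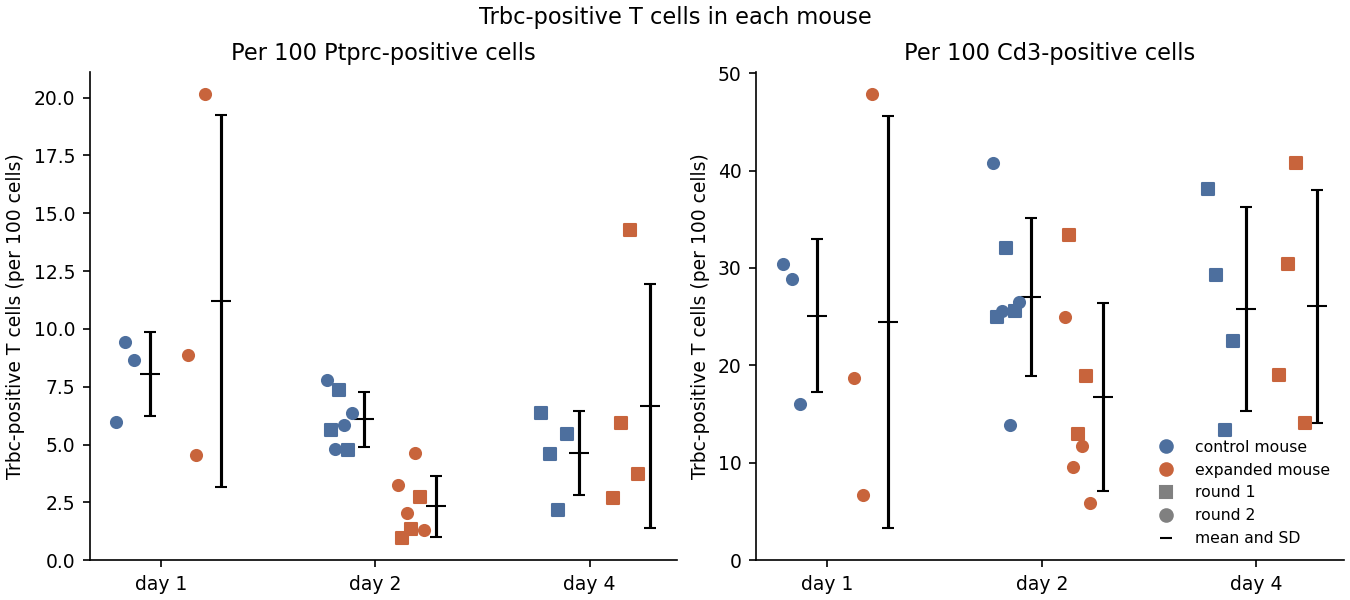
Trbc-positive T cells per 100 Ptprc-positive cells (left) and per 100 Cd3-positive cells (right) in each hashed mouse, by day and arm (squares round 1, circles round 2), with the mean and SD of each arm. At day 2 the 7 expanded mice lie at 0.942 to 4.62 and the 7 control mice at 4.76 to 7.80 in the left panel, and mouse 3 of the expanded day 1 library stands at 20.1.

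CD8-only cells were a larger part of the members in the expanded libraries, short of the adjusted threshold. After thinning to 2000 UMIs they were 5.56%, 4.00%, 7.69%, 5.26% and 10.6% of the members in the control libraries of day 1 rounds 1 and 2, day 2 rounds 1 and 2, and day 4. The expanded libraries had 17.6%, 50.3%, 6.45%, 23.8% and 17.1%. The value was higher in 4 of 5 pairs of the same day and round, and the expanded library of day 2, round 1 lay within the control range. The means were 6.62% ± 2.58 and 23.07% ± 16.45 (SD, n = 5 each, two-sided exact permutation p = 0.0238, adjusted p over 4 classes 0.0794).

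Without mouse 3 the difference of 16.4 percentage points became 9.64, with the same adjusted p (exact permutation, 0.0794). With all mice, cells with neither coreceptor made up 89.48% ± 1.86 and 71.75% ± 16.77 (exact permutation p = 0.0397, adjusted p = 0.0794), and CD4-only cells 3.90% ± 1.61 and 4.89% ± 3.07 (exact permutation p = 0.635). Over mice of days 1 and 4 with at least 20 members, 5 control and 3 expanded, CD8-only cells averaged 7.65% and 30.8% (exact permutation within day and round, p = 0.133). Day 2 was left out, since no expanded mouse of that day had 20 members. Mouse 3 had 54.3%, and mice 2 and 3 of the expanded day 4 library had 9.52% and 28.6%. Without thinning CD8-only cells numbered 3, 10, 5, 8 and 14 in the control libraries and 10, 211, 4, 5 and 16 in the expanded ones. Apart from the expanded library of day 1, round 2, every library thus rested on at most 16 such cells.

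**Figure D3:**
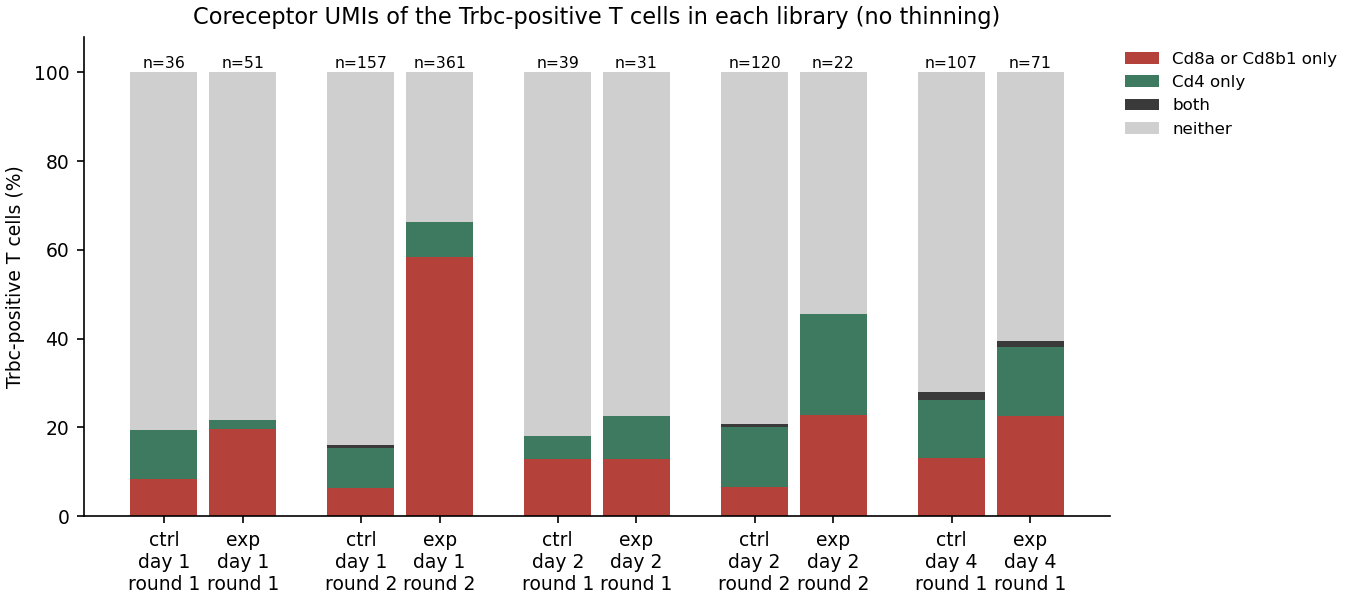
Percent of the Trbc-positive T cells of each library that were CD4-only, CD8-only, both or neither, without thinning. CD8-only cells are 58.4% in expanded day 1 round 2 and no more than 22.7% in any other library.

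The expression of the members was then compared between the arms on counts summed per library, with edgeR's quasi-likelihood test and a term for day. None of 6330 genes passed an adjusted p of 0.05 (0%), while 539 had an unadjusted p below 0.05. With the pair of day and round as a block, 67 genes passed (1.06%), 5 higher (0.079%) and 62 lower (0.979%) in expanded skin. DESeq2 with day called 69 of 6947 genes (0.993%), 10 higher (0.144%) and 59 lower (0.849%), of which 38 were shared with the block fit. After thinning the members, edgeR with day called 14 of 1859 genes (0.753%), 4 higher (0.215%) and 10 lower (0.538%). The fits differed in how many genes they called, so the values below name the fit.

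Ccl5, a chemokine gene of effector and memory CD8 T cells, had 89.5, 71.5, 75.6, 405 and 58.8 CPM in the members of the control libraries and 152, 738, 305, 1524 and 229 CPM in those of the expanded libraries. It was higher in each of the 5 expanded libraries than in its control, though control day 2 round 2 lay above 3 of the expanded libraries. The difference was 2.04 on the log2 scale (SE 0.54, adjusted p = 0.279 in edgeR). With the pair as a block it rose by 1.97 (adjusted p = 0.0172, edgeR). Without mouse 3 it was 1.43 in the fit with day (adjusted p = 0.571, edgeR).

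Klrd1 in the members was 89.5, 102, 71.2, 75.0 and 82.4 CPM in control and 201, 329, 136, 93.6 and 193 CPM in expanded libraries. It was higher in 5 of 5 pairs, and the arms overlapped only in that expanded day 2 round 2 lay below control day 1 round 2. The difference was 1.08 (SE 0.20, adjusted p = 0.212, edgeR), and the fit with the pair as a block called it higher (adjusted p = 0.0302, edgeR). Without mouse 3 the difference was 0.84 (adjusted p = 0.286, edgeR). By mouse, over animals with at least 20 members, Ccl5 differed by 2.67 (SE 0.51, adjusted p = 0.123, edgeR) and Klrd1 by 1.36 (SE 0.41, adjusted p = 0.411, edgeR). Mouse 3 was among these animals.

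The CD8 genes gave differences in the same direction as the coreceptor shares. Cd8a was 33.0, 26.7, 8.90, 14.2 and 52.9 CPM in control and 55.3, 272, 10.8, 111 and 70.0 CPM in expanded libraries. Every expanded library lay above its own control, and the 2 ranges overlapped. The pair of day 2, round 1 (8.90 and 10.8 CPM) rested on a few UMIs per library. The difference was 1.73 (SE 0.58, adjusted p = 0.438, edgeR), and 1.05 without mouse 3. Cd8b1 differed by 1.53 (SE 0.44, adjusted p = 0.305, edgeR), higher in 4 of 5 pairs. At day 2, round 1 it was 48.9 CPM in control and 43.1 CPM in expanded skin. Cd4 differed by 0.00 (SE 0.48) and Trac by 0.23 (SE 0.29), which sets no direction for either.

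Of the key genes of migration, Ccr7 and Cxcr4 gave one-sided pairs without passing a fit, and others did not go one way. S1pr1 differed by 0.00 (higher in 2 of 5 pairs), Cxcr6 by 0.21 (3 of 5) and Klf2 by -0.38 (3 of 5). Of 12 chemokine receptor and integrin genes tested, 6 differences were positive and 6 negative. The share of all genes with 5 one-sided pairs is not given here. Ccr7, the receptor that leads T cells through lymph vessels to lymph nodes, was 35.3, 46.0, 102, 116 and 102 CPM in control and 13.4, 24.7, 61.0, 25.5 and 79.6 CPM in expanded libraries. Each of the 5 expanded libraries lay below its own control (difference -0.98, SE 0.26, adjusted p = 0.267, and 0.131 with the pair as a block, edgeR). Cxcr4, the receptor of the chemokine CXCL12, was higher in all 5 pairs, at 44.7, 139, 142, 159 and 149 CPM in control against 122, 193, 187, 375 and 218 CPM in expanded libraries. Its difference was 0.68 (SE 0.28, adjusted p = 0.549, edgeR).

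The listed genes of activation and effector function did not pass in either fit, apart from Ccl5, Klrd1 and Gzmc. The inhibitory receptor genes gave 0.91 for Pdcd1 (SE 0.42, higher in 4 of 5 pairs) and -0.59 for Ctla4 (SE 0.46, lower in 5 of 5). Cd69, an early activation and residency gene, gave 0.44 (SE 0.24, 4 of 5 higher), Icos 0.11, Il7r -0.03, Itgae -0.08 and Nkg7 -0.06. The expanded day 4 library held the highest values of Il17a and Il13: Il17a reached 1748 CPM in the expanded day 4 library, against 2.35 to 305 in the other 9, and Il13 228 CPM there, against 3.59 to 84.5. The division gene Mki67 gave -0.47 (SE 0.48), and cells with at least 2 UMIs over 7 cell cycle genes made up 8.83% ± 7.04 and 5.24% ± 4.77 of the thinned members (SD, n = 5 each, exact permutation p = 0.397).

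Gzmc was 7464, 7506, 9557, 13304 and 8008 CPM in the members of the control libraries and 3619, 1051, 6350.3, 3448 and 4355 CPM in those of the expanded ones. Every expanded library lay below every control library, so the arms did not overlap. The lowest value, 1051 CPM, was that of the expanded library of day 1, round 2, which holds mouse 3. The difference was -1.40 on the log2 scale (SE 0.32, adjusted p = 0.212, edgeR), and the gene fell by 1.51 in the fit with the pair as a block (adjusted p = 0.0390, edgeR). In members with a Trac UMI the same difference was 1.13, in the opposite direction (adjusted p = 0.988, edgeR). That fit held 4 control and 3 expanded libraries, since control day 1 round 1 and both expanded libraries of day 2 had fewer than 20 such cells.

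In the lists of T cell genes nothing passed in the fit with day: 0 of 16 receptor and signalling genes, 0 of 11 cytotoxic, 0 of 14 costimulatory or inhibitory, 0 of 10 residency, 0 of 19 acute activation and 0 of 16 cell cycle genes. The medians of these lists lay between -0.24 and 0.24, where the median over all genes was 0.01. Outside that range lay the coreceptors, with a median of 1.53 over 3 genes, all positive. The type 2 helper list had -0.84 over 4 genes tested, 1 positive and 3 negative. The block fit called Ccl5 among 8 type 1 helper genes, and Klrd1 higher and Gzmc lower among 11 cytotoxic genes.

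The block fit also called genes of other skin cells. Of 7 fibroblast markers tested 5 fell, namely Col1a1, Col1a2, Col3a1, Sparc and Lum, and of 7 keratinocyte markers Krt5 and Krt15 rose. Col1a1, a collagen gene, was 16739, 3838, 262, 944 and 5029 CPM in the members of the control libraries and 5032, 708, 17.9, 17 and 74.8 CPM in those of the expanded ones (difference -3.63 with the block, adjusted p = 0.0185, edgeR). The MHC class II genes H2-Aa and H2-Eb1, which belong to antigen-presenting cells, fell by 3.45 and 3.17 (adjusted p = 0.0296 and 0.0230, edgeR).

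The summed level of the 8 fibroblast markers in the members was 899 to 57235 CPM in control libraries (median 14466) and 25.5 to 20951 in expanded ones (median 1824), lower in 5 of 5 pairs. Dendritic cell markers ran from 209 to 1161 CPM in control (median 913) and 129 to 377 in expanded libraries (median 262). Natural killer markers ran from 727 to 1318 (median 991) and 238 to 1119 (median 417). Those of macrophages had medians of 570 and 68.1, keratinocytes 1833 and 2287, group 2 innate lymphoid cells 927 and 427, and gamma delta T cells 134 and 169. Regulatory T cell markers other than Foxp3 had medians of 1794 and 1711, and were higher in expanded skin in 0 of 5 pairs. Among the defining markers at 0 were Pax5 for B cells and Fcer1a for mast cells. The part of these transcripts in the results between arms was not tested. Members marked above for other-lineage UMIs, a mark that does not count fibroblast markers, were then left out. In that fit edgeR called 18 genes lower and none higher, and 5 of the 18 were fibroblast markers. The fit lacked control day 1 round 1 and both expanded libraries of day 2, because each had fewer than 20 such cells.

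**Figure D4:**
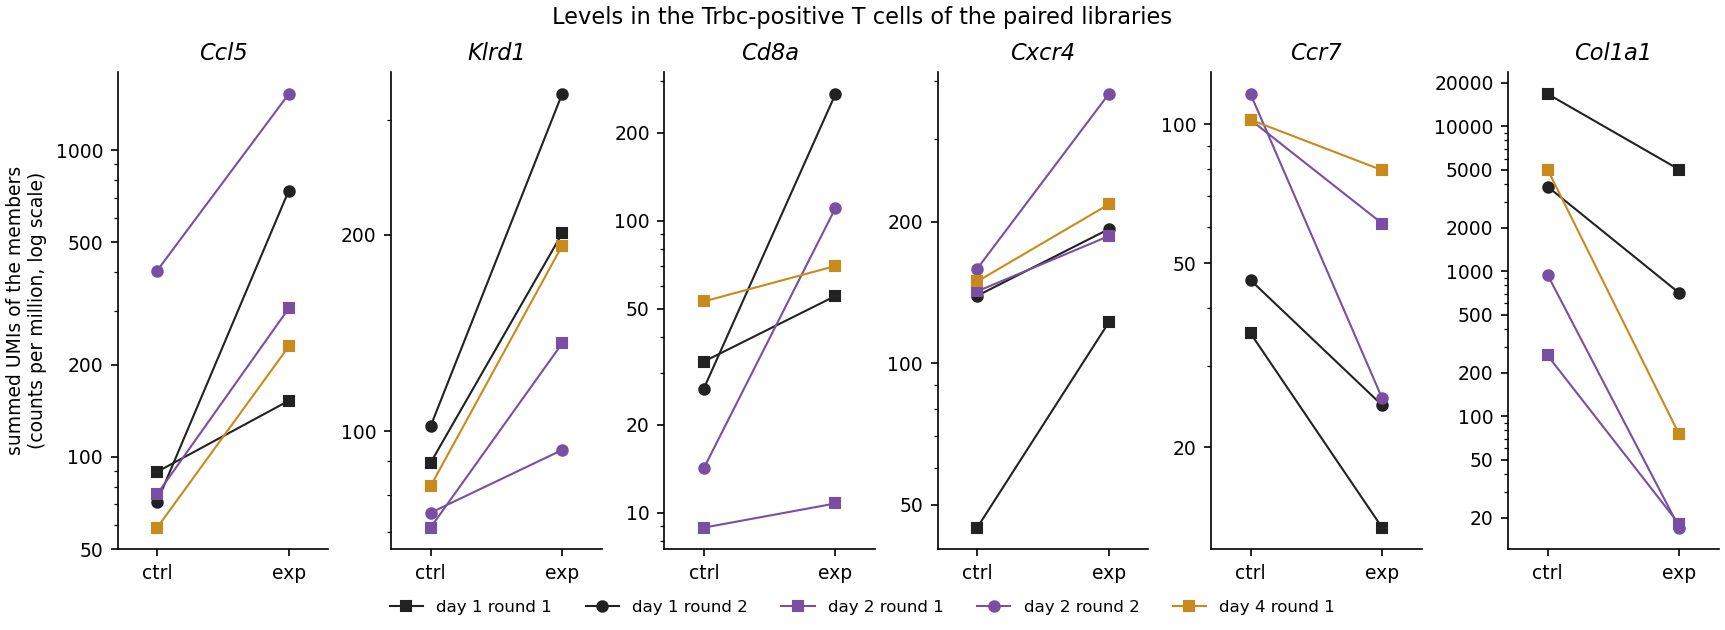
CPM of single genes in the summed Trbc-positive T cells, log axis, with a line from the control to the expanded library of each day and round. Ccl5, Klrd1, Cd8a and Cxcr4 go up in 5 of 5 pairs, while Ccr7 and Col1a1 go down in 5 of 5. Cd8a goes from 8.90 to 10.8 CPM at day 2 round 1, on a few UMIs per library.

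By mouse none of 3677 genes passed (0%, 272 with an unadjusted p below 0.05, edgeR), where a minimum of 10 members called 3 of 2237 (0.134%): Rbm3 was higher (0.0447%), and the unnamed transcripts Gm42418 and AY036118 were lower (0.0894%). For none of 6330 genes did the difference of the expansion effect between days pass (0%, 122 with an unadjusted p below 0.05, edgeR). The smallest p there was that of Cxcl1, a neutrophil chemokine gene (8.23e-05, adjusted p = 0.521, edgeR).

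Beside the regulatory T cells of the same libraries, 6 of 8 cytotoxic genes tested were higher in the members, and checkpoint genes passed in both directions. The comparison used the 5 libraries with at least 20 cells of both, counts summed per library and the library as a block. Both groups share all parts of the rule but Foxp3, and the split used UMIs of the same cells. In edgeR 535 of 5389 genes passed (9.93%), 290 higher (5.38%) and 245 lower (4.55%) in the members.

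Of 8 cytotoxic genes tested 6 were higher and 1 lower in the members, with a median difference of 4.47 against -0.02 over all genes. Klrk1 was 660, 1094, 671, 453 and 487 CPM in the members of control day 1, expanded day 1, control day 2, control day 4 and expanded day 4. It was 0 in the regulatory T cells of all 5, so it was at least 268-fold higher in the members, taking a floor of 3 counts over the group. Gzmc was 7506, 1051, 13304, 8008 and 4355 CPM against 0, 3.37, 11.6, 5.59 and 10.6, a log2 difference of 9.95 (SE 0.30, adjusted p = 4.44e-08, edgeR). No library of either gene overlapped between the groups. Klrd1, Nkg7, Ctsw and Klrc1 were the others, with differences of 4.78, 3.81, 4.63 and 4.32, while Gzmb, the main granzyme of killer cells, was lower by 1.70.

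Il17a, Il17f, Il2 and Xcl1 passed as higher in the members, and Ifng did not pass. Il17a and Il17f, the cytokines of type 17 cells, had 1740 and 2186 UMIs in the members and 3 and 1 in the regulatory T cells. The ratios per UMI sequenced were 121 (95% exact interval 41.5 to 589) and 458 (82.1 to 18088). The T cell growth factor gene Il2 gave a ratio of 26.7 (7.32 to 222), and the chemokine gene Xcl1, which draws cross-presenting dendritic cells, 362 (124 to 1758). These intervals cover counting error only. Il17a by library was 305, 134, 41.4, 121 and 1748 CPM, so 1 library, expanded day 4, held most of it. Ifng was 50.6 to 125 CPM in the members, and in the regulatory T cells 159 in control day 1 and 0 to 6.75 elsewhere (difference 2.14, SE 0.91, adjusted p = 0.179, edgeR).

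The checkpoint genes went both ways, 5 higher and 6 lower of 13 tested. Ctla4, through which regulatory T cells act, was 260, 242, 365, 375 and 175 CPM in the members and 1872, 1588, 1381, 2224 and 2261 CPM in the regulatory T cells. The groups did not overlap, with a difference of -2.65 (SE 0.22, adjusted p = 7.45e-05, edgeR). Tnfrsf4 was lower by 3.09, Tnfrsf9 by 2.00 and Tnfrsf18 by 1.17. Higher in the members were Pdcd1 by 1.44, Cd40lg, the helper signal to B cells and dendritic cells, by 5.54, Tnfsf8 by 3.34, Tnfsf11 by 5.56, and Cd160, which was 0 in the regulatory T cells.

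Of 9 residency genes 4 were higher and none lower, namely Litaf, Cxcr6, Rgs1 and Rgs2, with a median of 1.39. The transcription factor gene of naive and memory T cells Tcf7 was higher by 4.24, and Ccr7 lower by 2.30. Il1rl1, the interleukin 33 receptor of tissue regulatory T cells, was lower by 3.43, Klrg1 by 3.80, Itgb8, which activates transforming growth factor beta, by 3.37, Ikzf4 by 3.02 and Ikzf2 by 1.69. Of 12 interferon response genes 4 were lower and none higher. Of 18 acute activation genes 8 were higher, among them Nr4a2 and Nr4a3, and of 11 dissociation genes Jun, Fos, Fosb and Atf3 were higher.

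Of 16 receptor genes 2 were higher and 3 lower than in the regulatory T cells (median 0.05). Trac differed by -0.45 (SE 0.17, adjusted p = 0.118, edgeR), Cd28 by -0.25 and Icos by -0.52 (adjusted p = 0.459 and 0.0661, edgeR). The tyrosine kinase gene Txk was among the higher ones, and Cd5, Cd247 and Cd2 were lower. Cd4 was lower by 1.94, in a set where most members had no Cd4 UMI. Markers of other cells moved with this comparison too: 4 of 6 fibroblast markers and 4 of 5 keratinocyte markers were higher in the members, Col1a1 in 4 of 5 libraries, and Fcer1g by 3.38, Kit by 1.85 and H2-Ab1 by 3.60. Their part in the other differences was not tested.

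Beside the gamma delta T cells, 7 of 9 type 1 helper genes and 7 of 14 costimulatory or inhibitory genes were higher in the members. Of 16 receptor and signalling genes 4 were higher, namely Cd5, Cd6, Cd28 and Trac, 1 was lower and 11 did not pass, with a median of -0.08 against 0.03 over all genes. This comparison used 4 libraries (control and expanded day 1 round 2, control day 2 round 2 and control day 4), and 484 of 5663 genes passed (8.55%), 179 higher (3.16%) and 305 lower (5.39%). Cd5 was 54.5, 415, 91.8 and 114 CPM in the members and 0, 12.0, 0 and 0 in the gamma delta T cells, a ratio of 68.6 (95% exact interval 18.9 to 567). Cd28 was 399, 916, 525 and 374 CPM against 4.89, 41.9, 0 and 70.8 (difference 4.45, SE 0.52, adjusted p = 0.000589, edgeR). Trac was 241, 447, 322 and 334 CPM against 44.0, 23.9, 16.0 and 20.2 (difference 3.56, SE 0.34, adjusted p = 0.000188, edgeR). None of the 3 genes overlapped between the groups. Cd247, the zeta chain of the receptor complex, was lower by 2.90.

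Of 9 type 1 helper genes 7 were higher and 1 lower, with a median of 3.24 against 0.03 over all genes. Ifng had 374 UMIs in the members and 1 in the gamma delta T cells, a ratio of 51.1 (9.12 to 2025). Tbx21, the transcription factor of type 1 cells, was higher by 3.24, Ccl5 by 3.81, Cxcr3 by 4.71, Stat4 by 2.77, Il18rap by 4.81 and Il18r1 by 1.54, while the interleukin 12 receptor gene Il12rb2 was lower by 4.65. Of 14 costimulatory or inhibitory genes 7 were higher, among them Icos by 2.89, Cd27 by 2.07 and Ctla4 with a ratio of 175 (31.3 to 6907), and Havcr2 was lower by 2.29. Tnfrsf4, Il2 and S1pr1, the receptor for exit from tissue, were 0 in the gamma delta T cells of all 4 libraries, and at least 24.8-fold, 8.52-fold and 9.07-fold higher in the members.

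Of 10 cytotoxic genes 3 passed. Gzmc was higher by 7.96, Prf1, the pore-forming protein of killer cells, was lower by 1.94 and Cst7 by 1.08. Klrk1 differed by 0.31 (SE 0.33, adjusted p = 0.639, edgeR), Nkg7 by -0.73 (SE 0.30, adjusted p = 0.170, edgeR) and Klrd1 by -0.50 (SE 0.31, adjusted p = 0.393, edgeR). Gzmc was thus far above both T cell groups compared here, at 1051 to 13304 CPM against at most 40.4. The 1238 cells with both Trdc and Trbc UMIs were in neither group. Over all libraries they outnumbered the 180 gamma delta T cells without a Trbc UMI. Within the members Gzmc was detected most often in cells with neither coreceptor, as given above.

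Lower in the members were Trdv4 by 5.26 and Tcrg-C1 by 4.96, which belong to the gamma delta receptor, and Avil, Fermt2, Kcnma1, Unc5b and Scn8a, each by 4.71 to 5.38. The groups were split on Trdc, and Trdv4 belongs to the same delta chain, so the direction of Trdv4 followed from the split. Fermt2 encodes an integrin activator, Avil an actin-binding protein, Unc5b a guidance receptor, and Kcnma1 and Scn8a ion channels. Rgs1 and Rgs2, which dampen chemokine signals, were lower by 1.10 and 0.86. Of 6 fibroblast markers Dcn, Sparc and Lum were lower in the members, by 1.40, 1.33 and 1.23, and Fcer1g was lower by 1.09. The part of these transcripts in the comparison was not tested.

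**Figure D5:**
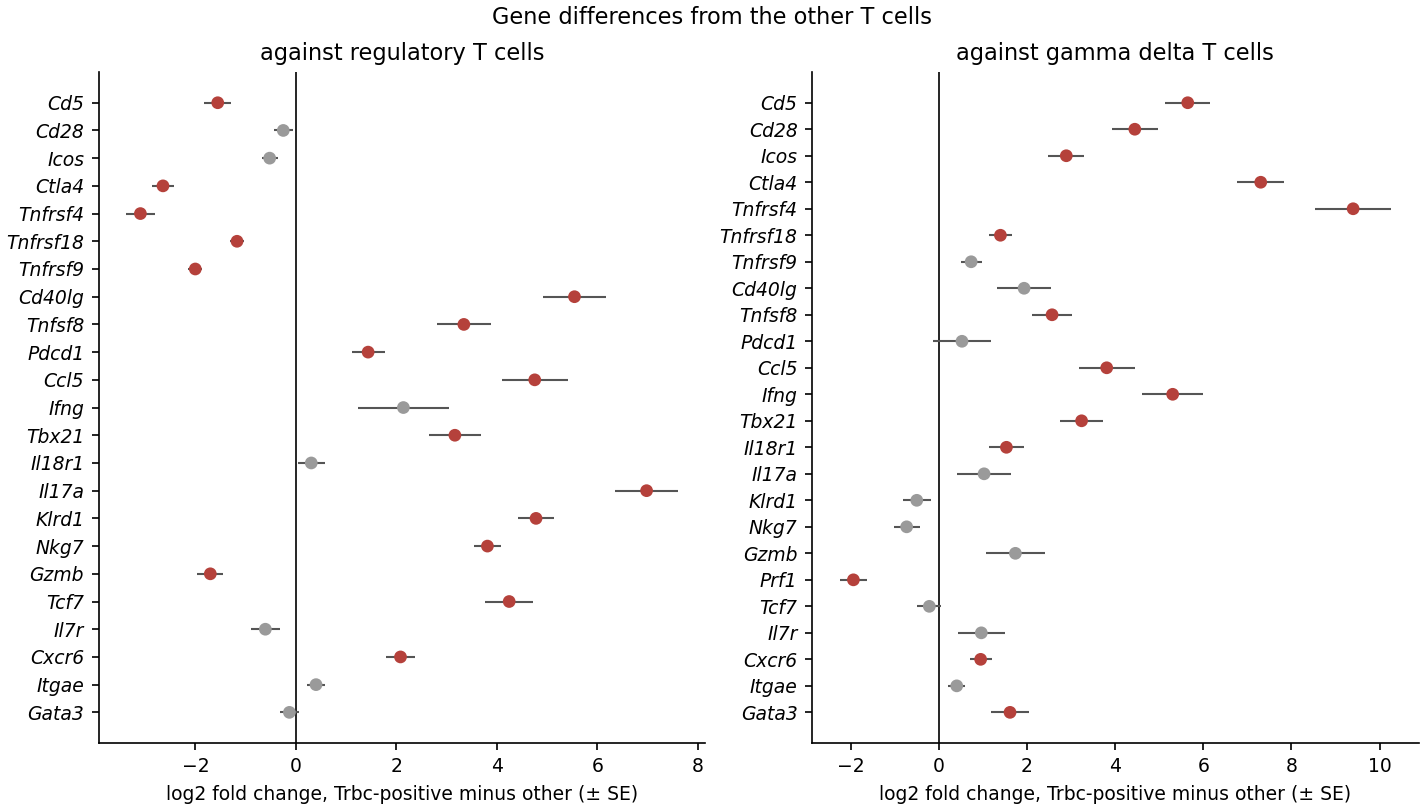
Log2 differences of the Trbc-positive T cells from regulatory T cells (5 libraries) and from gamma delta T cells (4 libraries) for genes of the lists, with standard errors, red where the adjusted p was below 0.05 and grey elsewhere. Ctla4 lies to the left against regulatory T cells (-2.65) and to the right against gamma delta T cells, where the fitted values of Ctla4 and Tnfrsf4 depend on the prior count because the other group had 1 and 0 UMIs.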

How the data were processed

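Droplet 3′ mRNA libraries of mouse skin were deposited by the authors as raw UMI counts per gene and barcode, made with Cell Ranger 6.1.2 and mm10 per the submitters' processing notes and the file headers, with no normalization. Total gene UMIs per library and member counts are given above. The members and gene lists were chosen with earlier results of these data known.

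Hashtags were assigned with HTODemux (Seurat 5.3.0, quantile 0.99), and alternatively where the top tag had at least 10 counts and 3 times the next. Doublets were marked with Scrublet (scanpy 1.11.5), which marked 0.0584% to 2.97% of the kept cells of a library and under 0.5% in 4 libraries, and were kept in the main analysis. Member counts were summed per library, mouse or subset with at least 20 cells and tested with edgeR 4.0.16 (R 4.3.3, TMM, filterByExpr, quasi-likelihood), with Benjamini-Hochberg adjustment over all genes tested. DESeq2 1.42.0 was an alternative. The subsets by coreceptor used at least 10 cells, chosen after 20 left 1 library. Fold changes are on the log2 scale of normalized counts, and CPM scales the summed UMIs of a library to a common total. Each standard error is the log2 difference over the root of the F statistic. Shares were compared by exact permutation (scipy 1.17.1), or with 100000 resamples over all days. Each library pools several mice, so p-values by library measure the spread between pools.

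Genes named are, per test, the 12 largest changes in each direction among those past an adjusted p of 0.05 that moved one way in every pair or library, members of the lists that passed, and a list of key genes. Rounds are sequencing batches, so libraries of equal day and round were taken as pairs. Their deviations correlated at 0.348 on day 1 and -0.00761 on day 2. The test was tried on simulated counts. Results for a few genes are not reported here.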

Additional observations from a re-analysis of the deposited data

Results flagged for a closer look

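Of 55 groups of libraries examined, 7 held a library far from the others, where chance gives about 1 in 20. The members made up 6.14% of kept cells in the expanded library of day 1, round 2, against 0.914% to 2.07% in the other expanded libraries. Cells with both coreceptors were 1.43% of the thinned members in the expanded day 4 library, which is 1 cell, and 0 in the others. Without thinning, control day 1 round 2, control day 2 round 2 and control day 4 held 1, 1 and 2 such cells. Ccl5 was 405 CPM in control day 2 round 2, against 58.8 to 89.5. Col1a1 was 16739 CPM in control day 1 round 1, against 262 to 5029, and 5032 CPM in expanded day 1 round 1, against 17 to 708. Itgae was 538 CPM in expanded day 1 round 1, against 306 to 365. Mki67 was 331 CPM in control day 4, against 37.6 to 113.

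With all mice, the difference between arms had opposite signs at days 1 and 2 in both rounds, a pattern that was not tested. Of kept cells, expanded minus control was 1.11 and 4.25 percentage points in the 2 rounds of day 1 and -0.87 and -0.91 in those of day 2. Per 100 Ptprc-positive cells it was 5.71 and 10.7 at day 1, and -4.37 and -3.63 at day 2. Per 100 Cd3-positive cells it was 7.09 and 17.5, and -8.61 and -14.9. The values of day 1, round 2 rest on mouse 3 of the expanded library. Without it 37 members remained, and the differences of that round were -0.94 of kept cells, 3.01 per 100 Ptprc-positive and -5.45 per 100 Cd3-positive cells, so the sign turned on 2 of the 3 bases.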

How the results depend on the processing

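The day 2 difference per 100 Ptprc-positive cells kept its sign and its side of 0.05, adjusted over the 3 bases, in all 19 alternatives, with -4.14 to -3.48 on leaving out single mice. Of assigned cells at day 2 the difference was -0.96 after thinning and -0.80 with Trac, past the threshold in neither. The differences that follow are expanded minus control, changed sign and did not pass a test except where stated. Per 100 Cd3-positive cells by library it was 0.52 without doublets, 1.70 with the gate of 3 UMIs, 0.82 after thinning and 2.18 with Trac. By mouse on the same base it was 0.51 at day 1 and -1.38 at day 4 under the other hashtag rule, 2.64 and 4.33 at day 1 with the gate of 3 UMIs and with Trac, and -4.39 at day 4 after thinning. Without mouse 3, the difference was -0.19 of kept cells by library, -0.82 of assigned cells over all days, and, at day 1, -2.03 of assigned cells and -1.32 per 100 Ptprc-positive cells. Per 100 Ptprc-positive cells over all days it was 0.21 with Trac. Cells with both coreceptors differed by -0.39 without thinning, and CD4-only cells by -2.19 after thinning to 1000 UMIs, where CD8-only cells differed by 11.36 and passed.

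Genes called higher and lower by library numbered 5 and 62 with the replicate block, 10 and 59 in DESeq2, 63 and 329 without a filter on low counts and 4 and 10 after thinning. The lower ones numbered 18 without members of other-lineage UMIs and 2 with the gate of 3 UMIs. By mouse they were 5 and 10 in DESeq2, 61 and 100 without the filter, 1 and 2 with 10 members, and 2 and 3 with 10 members and no mouse 3. Without the filter 128 genes differed between days. Against regulatory T cells the higher genes were 956 without the filter and 179 after thinning. Against gamma delta T cells they were 481 and 98, with 185 lower after thinning. Between CD8-only and CD4-only cells, higher and lower were 13 and 17 in DESeq2 and 54 and 84 without the filter, with 10 higher without doublets, 1 lower after thinning and 2 lower without the library as replicate block. Thinning also left fewer genes to test (1859 by library). The causes of the other changes were not tested. Gene fits without other-lineage members or with Trac used 7 libraries, and those with the gate of 3 UMIs used 9. A paired test of the shares cannot pass with 5 pairs, where the smallest p of sign flips is 0.0625.

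Single genes between arms that changed sign, all short of the threshold, were Trac (-0.18 thinned, -0.073 without mouse 3), Il7r (0.049 with the gate of 3 UMIs, 0.015 with the block), Itgae (0.21 without other-lineage members, 0.42 with Trac), Icos (-0.11 thinned, -0.030 without doublets, -0.317 without other-lineage members, -0.095 without mouse 3, -0.50 with Trac), Nkg7 (0.15 thinned, 0.69 without other-lineage members, 1.00 with Trac), Ifng (-0.15 without mouse 3) and Mki67 (0.083 without other-lineage members, 0.11 with Trac).

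Leaving out single libraries gave -0.090 to 1.22 for kept cells, -1.14 to 3.09 for Ptprc-positive and -4.54 to 2.85 for Cd3-positive cells, -0.28 to 1.73 for CD4-only, 9.65 to 20.60 for CD8-only (adjusted exact permutation p 0.0159 without expanded day 2 round 1) and -22.37 to -11.09 for cells with neither coreceptor. It left 0 to 16 genes lower between arms, the 16 without expanded day 1 round 1. Icos ran from -0.14 to 0.36, Ifng from -0.041 to 0.71, Il7r from -0.19 to 0.29, Itgae from -0.24 to 0.11 and Nkg7 from -0.18 to 0.056. Against regulatory T cells 203 to 390 genes were higher and 134 to 217 lower, against gamma delta T cells 46 to 187 and 135 to 314, and between the coreceptor subsets 0 to 7 and 0 to 6. Leaving out single mice gave, per 100 Cd3-positive cells, -12.40 to 8.20 at day 1, -13.03 to -7.98 at day 2 and -4.63 to 4.38 at day 4. Per 100 Ptprc-positive cells it gave -1.32 to 6.48 at day 1 and -0.52 to 3.35 at day 4, and of assigned cells -2.03 to 5.41 at day 1. Libraries held 22 to 361 members, and genes with few UMIs in them were not tested.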
